A study of Mus musculus with 18 samples.

Results

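The members were 6 matrix metalloproteinase genes and 1 inhibitor gene (*Mmp8*, *Mmp9*, *Mmp12*, *Mmp13*, *Mmp14*, *Mmp19* and *Timp2*), which is 7 of 22367 protein-coding genes in the annotation. They were named with earlier results of these data known, so that their counts beside those of all genes are a description, and each locus was the gene plus 20 kb on either side. ChIP-seq for PU.1 and for the factors C/EBPα and C/EBPβ was available in 18 libraries of C10 cells, a mouse pre-B line derived from HAFTL cells that carries a C/EBPαER-GFP fusion moved into the nucleus by β-estradiol (β-Est). C/EBPα was profiled at 0 hours post induction (hpi), at 10, 30 and 60 min and at 3, 12, 24 and 48 hpi. PU.1 and C/EBPβ were profiled at 0, 3, 12, 24 and 48 hpi. All cells were grown with IL-3 and CSF-1, the 0 hpi control received the solvent ethanol and carries the same fusion, and the sources give different concentrations of β-Est. C10 is 1 line, so that the libraries do not sample other lines or primary cells, and gene expression was not analysed here.

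Matrix metalloproteinases are zinc-dependent enzymes that are made as inactive proenzymes and cut collagens, elastin and other matrix proteins. MMP8 and MMP13 are collagenases, MMP9 is gelatinase B, and MMP12 is the macrophage metalloelastase. MMP14 is anchored in the membrane and activates pro-MMP2 in a complex with TIMP2, a member of the family of tissue inhibitors that block the enzymes. Neutrophils store MMP8 and MMP9 in granules, and macrophages release several of the others. C/EBPα and PU.1 are transcription factors of the myeloid lineage, PU.1 is also present in B cells, and C/EBPβ recognizes the same motif as C/EBPα.

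Each factor had a single library at each time, so no test between libraries was possible. Depth was 5968544 to 24909437 reads in the C/EBPα libraries. It was lower in those of C/EBPβ, with 2901164 to 5843194, and 6574957 to 11349498 in those of PU.1. The smallest count that could be called in a window corresponded to between 5.62 and 13.4 reads per 10000000 in C/EBPα libraries. The range was 7.93 to 12.2 in PU.1 libraries and 13.7 to 24.1 in C/EBPβ libraries, so weak C/EBPβ sites could be missed at depths at which C/EBPα was seen. The C/EBPα libraries of 10, 30 and 60 min came from another sequencer with longer reads, which cannot be told apart from early time. Values below are reads within 100 bp of a site centre per 10000000 reads, with the exact Poisson 95% interval in parentheses where given. Ratios carry the exact conditional 95% interval. These intervals cover counting error only. A window of 200 bp counted at the merged centre can fall below the threshold in a library whose own called window was shifted, and a factor was called bound only where such a region was found. A count above the threshold can also lack a call. Regions had to be 4-fold over the surrounding 10 kb, with maxima 400 bp apart.

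The 7 loci held 79 of the 131572 sites called in the genome, 17 in the *Mmp8* locus, 15 in that of *Mmp9*, 13 in that of *Mmp14*, 12 in that of *Mmp13*, 10 in that of *Mmp12*, 8 in that of *Mmp19* and 4 in that of *Timp2*. C/EBPα was called at 38 of the sites in at least 1 library (48.1%, against 40.2% of all sites in the genome), C/EBPβ at 22 (27.8%, against 15.2%) and PU.1 at 59 (74.7%, against 73.2%). All 3 factors were called at 16 sites (20.3%, against 6.82%). The number called for C/EBPα, with the share of all sites in the genome called in the same library, was 5 at 0 hpi (2.32%), 11 at 10 min (8.86%), 18 at 30 min (16.5%), 25 at 60 min (22.1%), 21 at 3 hpi (19.6%), 17 at 12 hpi (12.0%), 16 at 24 hpi (9.56%) and 15 at 48 hpi (8.43%). For C/EBPβ it was 2 at 0 hpi (0.964%), 10 at 3 hpi (6.09%), 8 at 12 hpi (2.78%), 10 at 24 hpi (5.54%) and 20 at 48 hpi (11.9%). For PU.1 it was 25 at 0 hpi (28.7%), 26 at 3 hpi (31.6%), 40 at 12 hpi (55.6%), 40 at 24 hpi (42.7%) and 41 at 48 hpi (39.3%). Over the genome, too, the C/EBPα library of 60 min had the most regions (29162) and the C/EBPβ library of 48 hpi (15732), whereas that of PU.1 was the 12 hpi library (73328). Depth differed between the libraries, and with C/EBPα libraries thinned to the smallest the genome count was higher at 3 hpi (17942) than at 60 min (15170), so the counts give no course of the loci on their own.

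**Figure D1:**
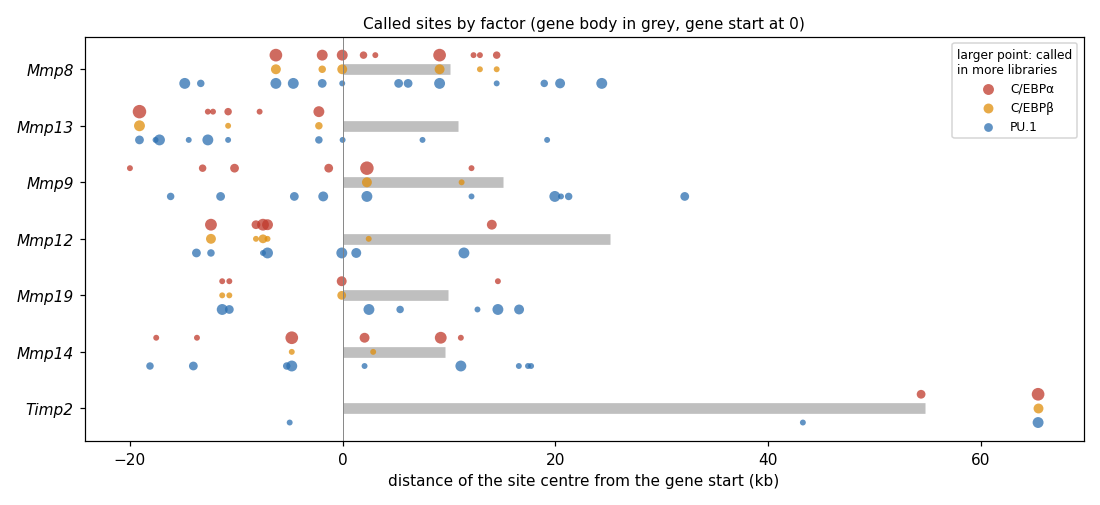
Positions of the 79 called sites along the 7 loci, in kb from the gene start, with the gene body as a grey bar, 1 line of points per factor and larger points for sites called in more libraries. The *Timp2* gene body has few points, and its site with calls for all 3 factors lies 65.4 kb from the gene start, past the end of the gene.

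The sequences that the results turn on are given here, from the mm9 reference and on its plus strand. For each locus they are the leading site (the site called for C/EBPα at 48 hpi with the most C/EBPα reads at that time, or, in the *Timp2* locus with no such call, with the most in any library) and, for *Mmp12* and *Mmp13*, the site with the most PU.1 reads at 0 hpi. The leading *Mmp8* site is in a UTR and is not printed. The sites 6.27 kb and 38 bp upstream of *Mmp8* were added after their values were seen, because they show different combinations of factors. Windows of 200 bp were cut where an exon begins. Capitals mark matches, on either strand, to a C/EBP motif (TTGCNNAA), a C/EBP-ATF composite (TGATGCAA), a PU.1 motif (GAGGAAGT) or its core (GGAAGT, which lies within the longer one), an AP-1 motif (TGANTCA) or a RUNX motif (TGTGGTT).
Mmp8, 6.27 kb upstream (chr9:7552056-7552255): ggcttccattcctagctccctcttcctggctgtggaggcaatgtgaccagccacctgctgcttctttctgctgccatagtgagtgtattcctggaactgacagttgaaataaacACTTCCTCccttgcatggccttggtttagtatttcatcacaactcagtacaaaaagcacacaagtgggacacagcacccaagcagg
Mmp8, 38 bp upstream (chr9:7558291-7558428): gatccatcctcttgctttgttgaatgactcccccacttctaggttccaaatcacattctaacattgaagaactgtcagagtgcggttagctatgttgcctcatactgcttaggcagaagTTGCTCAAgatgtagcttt
Mmp13, 19.1 kb upstream (chr9:7253321-7253520): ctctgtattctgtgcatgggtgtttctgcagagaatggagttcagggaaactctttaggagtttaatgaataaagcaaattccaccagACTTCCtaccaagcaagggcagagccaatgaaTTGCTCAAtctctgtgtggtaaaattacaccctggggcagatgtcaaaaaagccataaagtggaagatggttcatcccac
Mmp13, 12.7 kb upstream (chr9:7259746-7259945): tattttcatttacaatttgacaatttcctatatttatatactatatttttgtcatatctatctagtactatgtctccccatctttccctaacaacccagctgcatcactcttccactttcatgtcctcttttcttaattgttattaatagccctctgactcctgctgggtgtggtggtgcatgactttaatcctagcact
Mmp9, 2.28 kb downstream (chr2:164768461-164768660): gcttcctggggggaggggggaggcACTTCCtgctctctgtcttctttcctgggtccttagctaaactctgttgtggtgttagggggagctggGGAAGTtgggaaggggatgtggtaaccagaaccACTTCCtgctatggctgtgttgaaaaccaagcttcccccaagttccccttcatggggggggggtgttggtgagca
Mmp12, 12.4 kb upstream (chr9:7331906-7332105): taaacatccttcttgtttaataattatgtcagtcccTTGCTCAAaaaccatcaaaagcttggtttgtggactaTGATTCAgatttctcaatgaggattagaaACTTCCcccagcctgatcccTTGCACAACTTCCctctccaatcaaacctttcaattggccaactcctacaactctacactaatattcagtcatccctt
Mmp12, 7.06 kb upstream (chr9:7337221-7337420): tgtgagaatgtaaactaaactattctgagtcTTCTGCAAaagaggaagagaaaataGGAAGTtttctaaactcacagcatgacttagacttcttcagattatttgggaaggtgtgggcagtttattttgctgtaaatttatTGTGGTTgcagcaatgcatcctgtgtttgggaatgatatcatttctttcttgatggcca
Mmp19, 88 bp upstream (chr10:128227821-128228008): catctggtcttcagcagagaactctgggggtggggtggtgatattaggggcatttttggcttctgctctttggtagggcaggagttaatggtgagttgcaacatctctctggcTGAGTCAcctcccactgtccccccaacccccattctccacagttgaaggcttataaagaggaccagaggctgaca
Mmp14, 2.06 kb downstream (chr14:55052401-55052600): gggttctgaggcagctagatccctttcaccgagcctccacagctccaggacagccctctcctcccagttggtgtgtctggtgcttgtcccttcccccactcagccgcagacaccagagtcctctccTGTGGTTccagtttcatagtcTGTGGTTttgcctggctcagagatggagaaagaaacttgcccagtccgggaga
Timp2, 65.4 kb downstream (chr11:118151596-118151795): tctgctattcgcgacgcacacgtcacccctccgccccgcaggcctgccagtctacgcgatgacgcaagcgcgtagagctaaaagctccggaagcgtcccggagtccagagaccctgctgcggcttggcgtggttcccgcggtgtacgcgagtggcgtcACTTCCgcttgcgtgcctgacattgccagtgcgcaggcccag

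Among the 15 sites called for C/EBPα at 48 hpi in the loci, 7 held the C/EBP motif within 100 bp of the centre, against 32.6% of such sites in the genome. None of the 15 held the composite motif (3.8% in the genome), 8 held the PU.1 core (39.1%), 3 the AP-1 motif (14.6%) and 3 the RUNX motif (9.24%). The longer PU.1 motif occurred at 8 of the 41 sites called for PU.1 at 48 hpi, against 25.2% in the genome, and its core at 26 of them, against 64.4%. Over all 79 sites the AP-1 motif occurred at 14 (17.7%, against 9.3% of all sites). In the printed windows, the *Mmp12* site 12.4 kb upstream held 2 C/EBP matches, 2 PU.1 cores and 1 AP-1 match, whereas the *Mmp9* site held 3 PU.1 cores with no match to the C/EBP motif searched. The *Mmp19* site held an AP-1 match alone and the *Mmp14* site only RUNX matches. The *Mmp13* site 12.7 kb upstream, printed for its PU.1 reads at 0 hpi, held no match to any of the motifs. A match describes the letters of the window and not a bound base.

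*Mmp8* (chr9:7558429-7568486, plus strand), the neutrophil collagenase, had 9 sites called for C/EBPα in at least 1 library, 4 of them at 48 hpi. Of these 4 sites, 2 were also called for PU.1 in every PU.1 library. At the leading site, in the 3′ part of the gene in a UTR and 9.11 kb from its start (chr9:7567441-7567640), C/EBPα counted 1.13 at 0 hpi, 6.02 at 10 min, 53.1 at 30 min, 71.7 at 60 min, 147 at 3 hpi, 199 at 12 hpi, 132 at 24 hpi and 135 (110 to 163) at 48 hpi. C/EBPβ counted 11.7 at 0 hpi, 95.8 at 3 hpi, 131 at 12 hpi, 141 at 24 hpi and 166 (132 to 205) at 48 hpi, which was 14.2-fold (5.84 to 44.8) the value at 0 hpi. PU.1 counted 9.93, 45.6, 45.7, 30 and 38.2 at the same times, 3.85-fold (1.71 to 10.2) higher at 48 than at 0 hpi. All 3 factors were therefore low before induction and high by 3 hpi at this site, which lies 3855 bp from the nearest start of the neighbouring *Mmp27*. *Mmp27* is a further metalloproteinase gene, and binding at this site cannot be assigned to either gene from these data. Another site, 65 bp from an *Mmp27* start, was called for C/EBPα (47.6) and C/EBPβ (24) at 3 hpi only. C/EBPα counted 1.68 there at 12 hpi.

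The *Mmp8* site 6.27 kb upstream of the gene start was intergenic and carried PU.1 before induction. C/EBPα counted 4.51 at 0 hpi, 19.3 at 10 min, 90.8 at 30 min, 98.8 at 60 min, 154 at 3 hpi, 131 at 12 hpi, 83.1 at 24 hpi and 81.7 at 48 hpi. PU.1 counted 31.2 (19.6 to 47.2), 80.6, 71.9, 67.8 and 99.4 (81.2 to 120) at 0, 3, 12, 24 and 48 hpi, and C/EBPβ 14, 101, 68.9, 89.7 and 106. C/EBPα was highest at 3 hpi. The interval at 3 hpi (132 to 179) overlapped that at 12 hpi (103 to 163) but not that at 48 hpi (63.1 to 104). Immediately at the start of *Mmp8*, 38 bp upstream, C/EBPα was called from 60 min on, with 2.26 at 0 hpi, 3.61 at 10 min, 3.08 at 30 min, 11.8 at 60 min, 69.2 at 3 hpi, 58.6 at 12 hpi, 30.3 at 24 hpi and 41.5 at 48 hpi. C/EBPβ counted no read at 0 hpi and 29.1, 37.9, 67.2 and 108 at 3, 12, 24 and 48 hpi, at least 15.5-fold higher at 48 hpi against a floor of 3 reads. PU.1 counted 4.25, 7.6, 11.2, 7.05 and 13.4 there and was called only at 48 hpi, so this promoter site differed from the upstream one in its PU.1 reads at 0 hpi (4.25 against 31.2). A further site 1.92 kb upstream went from 1.13 to 28.9 for C/EBPα and had 14.2, 54.8, 49.5, 14.1 and 18.2 for PU.1, which was highest at 3 and 12 hpi. The site with the most PU.1 reads before induction, 14.8 kb upstream, counted 51.1, 82.1, 94.3, 62.6 and 77.4 for PU.1 and was never called for C/EBPα or C/EBPβ.

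*Mmp13* (chr9:7272514-7283333, plus strand), collagenase 3, had a leading site at which C/EBPα was highest at 30 min, and a PU.1 site with fewer reads at 48 than at 0 hpi. The leading site, 19.1 kb upstream and intergenic, was called for C/EBPα and C/EBPβ in all of their libraries. C/EBPα counted 21.4 (12.9 to 33.5) at 0 hpi, 19.7 at 10 min, 79.2 (64.7 to 96.1) at 30 min, 72.2 (60.8 to 85.1) at 60 min, 60.2 (46.7 to 76.5) at 3 hpi, 45.2 (29.8 to 65.8) at 12 hpi, 13.2 at 24 hpi and 16.3 (8.7 to 27.9) at 48 hpi. The interval at 30 min overlapped those at 60 min, 3 hpi and 12 hpi, so the time of the maximum is not resolved at this depth. C/EBPβ counted 23.4, 42.8, 68.9, 64 and 84.7 at 0, 3, 12, 24 and 48 hpi, 3.63-fold (1.8 to 8.1) higher at 48 than at 0 hpi. With the C/EBPβ libraries thinned to the smallest this ratio was 9.33 (2.88 to 48), from 3 reads at 0 hpi. C/EBPα at 48 hpi was thus not distinguishable from 0 hpi at this depth (ratio 0.763, 0.346 to 1.63), while C/EBPβ was at its highest value. PU.1 counted 2.84, 21.3, 12.1, 7.05 and 3.82 and was called at 3, 12 and 24 hpi only. The site 2.23 kb upstream tied with this one in C/EBPα reads at 48 hpi and had counted 5.64 at 0 hpi and 47.6 at 3 hpi, with 16.3 at 48 hpi. The tie was settled by the value of 79.2 at 30 min, the higher one in any C/EBPα library.

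The site with the most PU.1 reads before induction among all 7 loci was in the *Mmp13* locus, 12.7 kb upstream. PU.1 counted 76.6 (57.5 to 99.9), 70, 32.7, 19.4 and 13.4 (7.31 to 22.4) at 0, 3, 12, 24 and 48 hpi, 5.72-fold (3.14 to 11.2) lower at 48 than at 0 hpi. It was still called at 48 hpi. C/EBPα stayed between 0.803 and 7.68 there with a single call at 60 min, and C/EBPβ was not called. A second PU.1 site, 17.2 kb upstream, counted 24.1 (14 to 38.6), 39.5, 20.5, 15 and 12.4 (6.61 to 21.2). Its intervals at 0 and 48 hpi overlapped. At the start of the gene, 3 bp upstream, only PU.1 at 48 hpi was called, with 12.4 against no read at 0 hpi.

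*Mmp9* (chr2:164766280-164781350, plus strand), gelatinase B, had a single site with strong binding of all 3 factors, in an intron 2.28 kb after the gene start. C/EBPα was called in all 8 libraries and counted 15.8 (8.63 to 26.5) at 0 hpi, 14.9 at 10 min, 50.8 at 30 min, 48.6 at 60 min, 75.5 at 3 hpi, 117 at 12 hpi, 111 at 24 hpi and 118 (95.5 to 145) at 48 hpi. All 5 PU.1 libraries had a call here, with 22.7, 28.9, 42, 62.6 and 57.3, 2.53-fold (1.44 to 4.7) higher at 48 than at 0 hpi. C/EBPβ counted 2.34, 25.7, 24.1, 32 and 61.1, with 1 read at 0 hpi and a ratio of 26.2 (4.36 to 1070). The values at 12, 24 and 48 hpi for C/EBPα lay within each other's intervals, so an order among them is not detectable at this depth. Of the 5 other sites called for C/EBPα in this locus, that 12.1 kb after the start was called at 12 hpi only (11.7), and those upstream were called at 30 min, 60 min or 3 hpi. At 1.31 kb upstream C/EBPα counted 3.38 at 0 hpi, 21.5 at 30 min, 29.2 at 60 min, 21.6 at 3 hpi and 10.1 at 48 hpi, where it was no longer called. A PU.1 site with no C/EBP call, 32.2 kb after the gene start in an intron of the neighbouring *Slc12a5*, counted 2.84 at 0 hpi and 44 at 48 hpi (ratio 15.5, 4.05 to 132).

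*Mmp12* (chr9:7344381-7369499, plus strand), the macrophage metalloelastase, had no C/EBPα call at 0 hpi. Its C/EBPα calls at 48 hpi were all upstream of the gene, and PU.1 was called both upstream and in the gene. At the leading site, 12.4 kb upstream, C/EBPα counted 0 at 0 hpi, 2.01 at 10 min, 18.5 at 30 min, 40.9 at 60 min, 91.7 at 3 hpi, 88.8 at 12 hpi, 76.5 at 24 hpi and 96.8 (76.4 to 121) at 48 hpi, at least 28.6-fold higher at 48 than at 0 hpi against a floor of 3 reads. C/EBPβ counted 2.34, 42.8, 41.4, 51.2 and 110 at 0, 3, 12, 24 and 48 hpi. PU.1 counted 4.25, 9.13, 14, 4.41 and 13.4, and its ratio of 48 to 0 hpi was 3.14 (0.878 to 17.1), which includes 1. PU.1 was called at this site at 12 and 48 hpi, with 14 at most.

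Between 7 and 9 kb upstream of *Mmp12* lay 3 sites with different courses. At 8.14 kb upstream C/EBPα counted 1.13 at 0 hpi, 2.01 at 10 min, 18.5 at 30 min, 38.4 (30.2 to 48.1) at 60 min, 29.7 at 3 hpi, 11.7 at 12 hpi, 3.96 at 24 hpi and 3.77 (0.778 to 11) at 48 hpi, and calls occurred from 30 min to 3 hpi only. At 7.48 kb upstream C/EBPα counted 5.64, 4.82, 18.5, 26.1, 17.1, 20.1, 51.4 and 46.5 in the same order, and C/EBPβ counted 7.01, 6.85, 24.1, 64 and 101 at 0, 3, 12, 24 and 48 hpi. PU.1 counted 1.42, 9.13, 12.1, 18.5 and 32.5 there, 22.9-fold (3.84 to 931) higher at 48 than at 0 hpi from 1 read at 0 hpi. It was called there at 24 hpi only, although its 34 reads at 48 hpi exceeded the threshold of 9. At 7.06 kb upstream PU.1 was called throughout, with 55.3, 98.9, 79.3, 52 and 83.1, and C/EBPα counted no read at 0 hpi, 5.22 at 10 min, where it was first called, and 22.6 at 48 hpi. The C/EBPα maximum thus fell at 60 min at the outermost of these sites, at 24 hpi at the middle one and at 48 hpi at the innermost. The maximum overlapped in its interval with 3 hpi at the outermost site, with 48 hpi at the middle one, and at the innermost with 30 min, 60 min and 24 hpi among others. The last 2 lie close enough for their reads to reach into each other's surroundings.

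The start and body of *Mmp12* held 3 PU.1 sites without a call for C/EBPα or C/EBPβ. At 80 bp upstream of the gene start PU.1 counted 29.8, 51.7, 103, 87.2 and 94.6, 3.18-fold (1.97 to 5.36) higher at 48 than at 0 hpi. In an intron 1.28 kb after the start (chr9:7345561-7345760) it counted 5.67 (1.55 to 14.5), 16.7, 92.4, 74.9 and 95.6 (77.7 to 116), a ratio of 16.8 (6.38 to 63). In an exon annotated 11.4 kb after the start it counted 19.9, 35, 59.7, 37 and 84.1. All 3 were higher at 48 than at 0 hpi, and the intron site was not called before 3 hpi. The gene also held a C/EBPα site in a UTR 14 kb after the start, called from 10 min to 3 hpi with up to 14.8, and a C/EBPβ site 2.45 kb after the start, called at 48 hpi with 23.7.

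**Figure D2:**
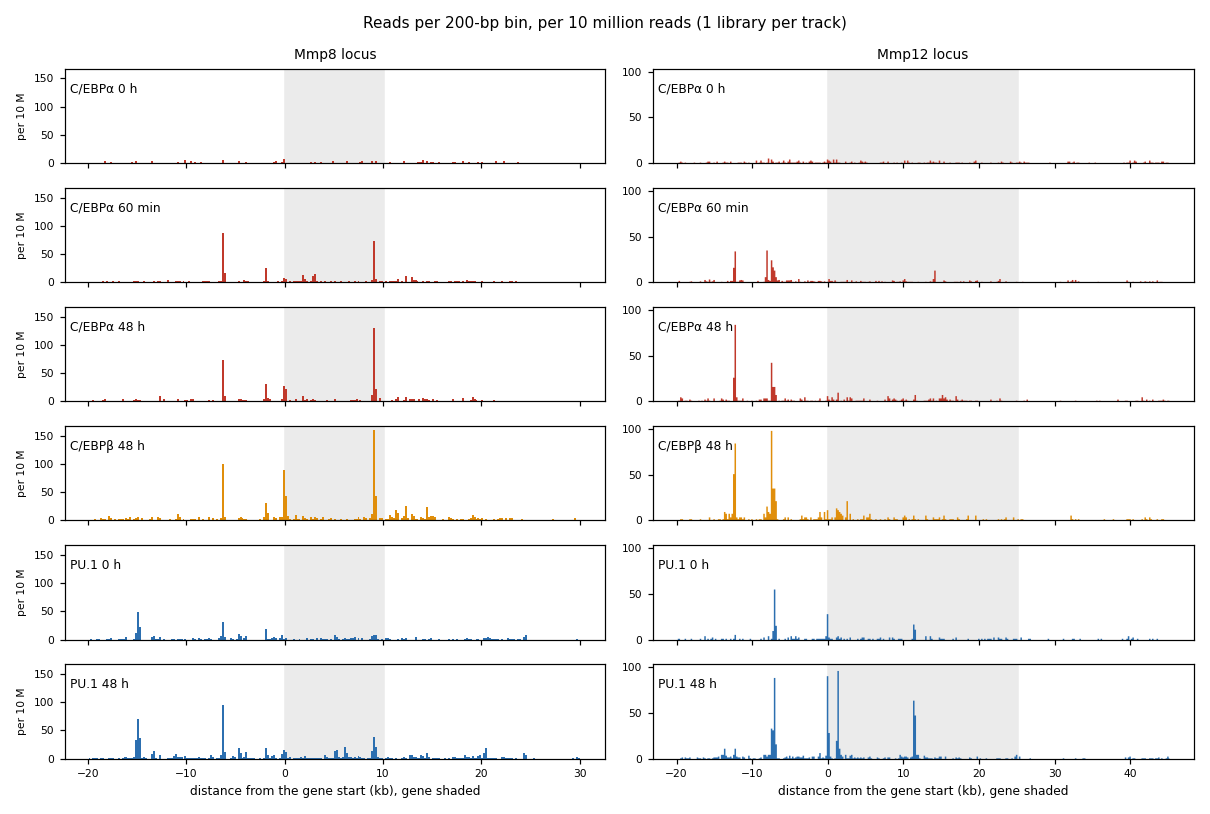
Reads per bin of 200 bp, per 10000000, along the *Mmp8* (left) and *Mmp12* (right) loci against the distance from the gene start in kb, with the gene shaded, for 6 of the 18 libraries and 1 scale per locus. C/EBP peaks of *Mmp12* stand 12.4 kb and about 7.48 kb upstream, apart from the PU.1 peaks in the gene. A further PU.1 peak stands close to the latter, 7.06 kb upstream, with 83.1 at 48 hpi. C/EBPα (22.6) and C/EBPβ (35.5) were also called there at 48 hpi. At *Mmp8* C/EBPα, C/EBPβ and PU.1 peaks coincide 6.27 kb upstream.

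*Mmp19* (chr10:128228009-128237880, plus strand), which encodes a secreted matrix metalloproteinase, had its leading site at the gene start, 88 bp upstream. C/EBPα counted 6.77 at 0 hpi, 1.61 at 10 min, 0.769 at 30 min, 3.07 at 60 min, 8.99 at 3 hpi, 16.8 at 12 hpi, 11.9 at 24 hpi and 32.7 (21.4 to 47.9) at 48 hpi. C/EBPβ counted no read at 0 hpi and 6.85, 20.7, 48 and 173 (139 to 214) at 3, 12, 24 and 48 hpi, at least 24.8-fold higher at 48 than at 0 hpi against a floor of 3 reads. PU.1 was never called there, with 0 to 4.78. The largest C/EBPβ value of the 79 sites at 48 hpi was this one, but its interval overlapped that of the leading *Mmp8* site at 166 (132 to 205). All 3 factors were called at 48 hpi at sites 11.3 kb and 10.6 kb upstream. C/EBPα counted 11.3 and 7.54 there at 48 hpi, C/EBPβ 23.7 and 11.8, and PU.1 42 and 32.5. PU.1 had counted 17 and 2.84 at these sites at 0 hpi. In the gene, in an intron 2.47 kb after the start, PU.1 counted 11.3, 25.9, 34.5, 39.6 and 77.4, 6.82-fold (3.3 to 16.3) higher at 48 than at 0 hpi, with no C/EBP call. The site with the most PU.1 reads at 0 hpi, 14.6 kb after the start, lies 89 bp from the start of *Dnajc14*, and counted 22.7, 24.3, 27.1, 22.9 and 12.4.

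*Mmp14* (chr14:55050441-55060095, plus strand), a membrane-type metalloproteinase, had fewer C/EBPα reads at its leading site at 48 hpi than the leading sites of *Mmp8*, *Mmp9* and *Mmp12*. At this site, in an intron 2.06 kb after the start, C/EBPα counted 4.51 at 0 hpi, 0.803 at 10 min, 0.769 at 30 min, 1.54 at 60 min, 9.89 at 3 hpi, 25.1 at 12 hpi, 15.8 at 24 hpi and 17.6 (9.62 to 29.5) at 48 hpi. C/EBPβ counted 0 to 19.2 there and was not called, and PU.1 counted 2.84 to 6.53, with a call at 24 hpi. The strongest PU.1 site at 48 hpi in the locus, 11.1 kb after the start and past the gene end (chr14:55061451-55061650), counted 25.5, 24.3, 47.6, 57.3 and 101, 3.97-fold (2.39 to 6.95) higher at 48 than at 0 hpi, with 1 C/EBPα call at 24 hpi. Its nearest gene start is that of *Gm11067*, 4872 bp away. The strongest PU.1 site at 0 hpi, 4.78 kb upstream, counted 42.5, 77.6, 104, 86.3 and 81.2 for PU.1, but it lies 85 bp from the start of *Mrpl52*, a mitochondrial ribosomal protein gene. C/EBPα was called there from 10 min on, with 19.8 at 24 hpi and 12.6 at 48 hpi, and C/EBPβ at 48 hpi with 19.7. In the 3′ part of the gene, 9.22 kb after the start in a UTR, C/EBPα counted 14.7 at 0 hpi, 27.9 at 3 hpi and 1.26 at 48 hpi, and was called up to 12 hpi.

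*Timp2* (chr11:118162383-118217054, minus strand), the inhibitor, spans 54.7 kb and had the fewest sites, although its locus is the longest. None was called for C/EBPα at 48 hpi. The site with the most C/EBPα reads in any library, 65.4 kb after the gene start, lies 138 bp from the start of *Usp36*, a deubiquitinase gene, and not in *Timp2*. C/EBPα counted 14.7 at 0 hpi, 12 at 10 min, 10 at 30 min, 9.73 at 60 min, 14.4 at 3 hpi, 21.8 at 12 hpi, 13.2 at 24 hpi and 6.29 (2.04 to 14.7) at 48 hpi. C/EBPβ counted 21, 13.7, 17.2, 28.8 and 69 (48 to 95.9), 3.28-fold (1.55 to 7.76) higher at 48 than at 0 hpi. PU.1 counted 18.4, 15.2, 34.5, 21.1 and 22.9, with a ratio of 1.24 (0.609 to 2.66) that includes 1. Within the *Timp2* gene C/EBPα was called only near its 3′ end in a UTR, with 6.92 at 30 min, 8.19 at 60 min and 20.7 at 3 hpi and no read at 48 hpi, and PU.1 only in an intron at 48 hpi with 10.5.

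**Figure D3:**
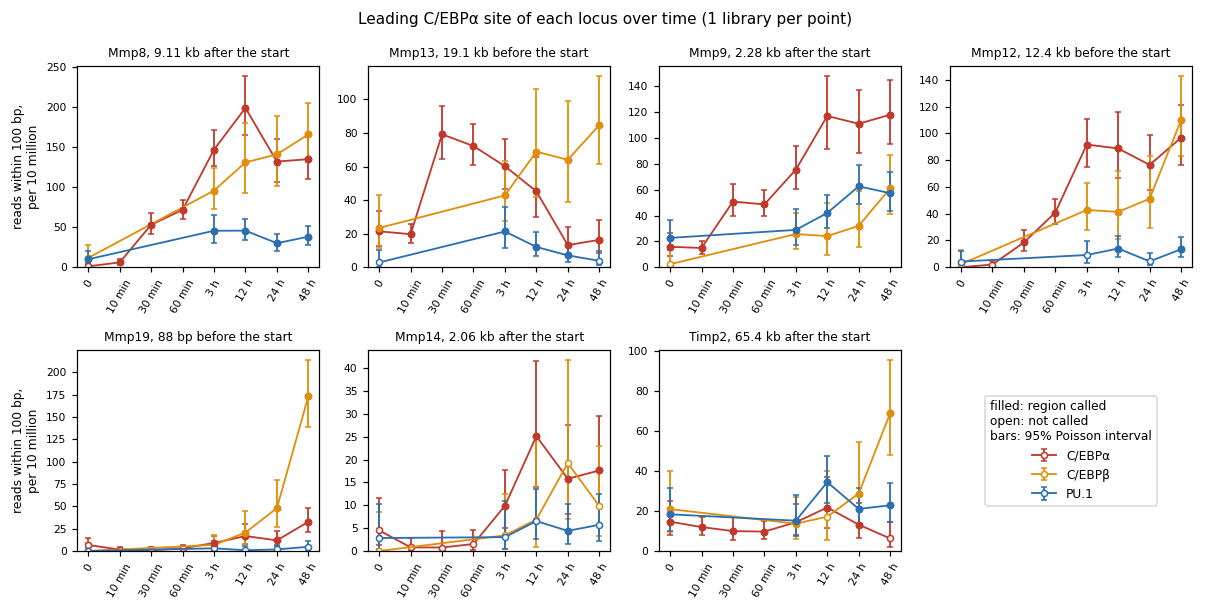
Reads within 100 bp of the leading site of each locus, per 10000000 (vertical axis, its own scale in each panel), against time, with 1 library per point, filled points where a region was called and bars for the 95% Poisson interval. At 48 hpi C/EBPα stands at 135 at *Mmp8*, 118 at *Mmp9* and 96.8 at *Mmp12*. At *Mmp13* its maximum of 79.2 falls at 30 min. C/EBPβ at 48 hpi is drawn above C/EBPα in every panel but those of *Mmp9* and *Mmp14*, with 173 at *Mmp19*. The intervals of these factors at 48 hpi overlap at *Mmp8*, *Mmp12* and *Mmp14*. The points of each factor come from its own antibody and libraries. At 48 hpi 95% of the C/EBPα reads and 89.4% of the C/EBPβ reads lay over 1000 bp from the centre of any called region. The heights therefore do not rank the occupancy of the factors.

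Reads at the leading sites were more numerous at 48 than at 0 hpi in 7 of 7 loci for C/EBPβ, in 7 of 7 for PU.1 and in 5 of 7 for C/EBPα. The C/EBPβ interval included 1 at *Mmp14* alone, where 5 reads at 48 hpi stood against none. The PU.1 interval included 1 in the loci of *Mmp12*, *Mmp13*, *Mmp14*, *Mmp19* and *Timp2*, so that for PU.1 only the *Mmp8* and *Mmp9* sites were higher by more than counting error. At *Mmp13* the leading site was 1 of 2 that tied, and with the one 2.23 kb upstream in its place the C/EBPα count would be 6 of 7 (ratio 2.9, 0.97 to 10.4), the others staying at 7. The leading sites were picked in a C/EBPα library, at 48 hpi in all loci but that of *Timp2*, so these counts are a description for all 3 factors. At the sites with the most PU.1 reads at 0 hpi, of which those of *Mmp9* and *Timp2* are the same sites, the counts were 6 of 7 for C/EBPβ, 5 of 7 for PU.1 and 5 of 7 for C/EBPα. Those sites were picked by the PU.1 reads at 0 hpi from which the PU.1 change is taken, so these counts are a description too.

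The loci were set beside all 22367 protein-coding genes taken in the same way, as a background for the counts. C/EBPα was called at 0 hpi in 4 of the 7 loci (15.3% of all loci) and at 48 hpi in 6 of the 7 (38.0%). C/EBPβ was called at 0 hpi in 2 of the 7 (6.60%) and at 48 hpi in 7 of the 7 (42.4%). With a threshold 1.5 times higher the counts at 0 hpi were 2 loci for C/EBPα (5.91% of all loci) and 0 for C/EBPβ (1.83%). With flanks of 5 kb they were again 2 (9.63%) and 0 (4.06%), and with thinned libraries C/EBPβ at 0 hpi was called in 1 locus (4.05%). PU.1 was called in 7 of the 7 at 0 hpi (67.1%) and in 7 of the 7 at 48 hpi (71.1%). The loci of the members held 3.61 C/EBPα regions per 100 kb at 48 hpi against 0.813 over all loci, and 9.87 PU.1 regions against 3.44. Within 500 bp of the gene start, C/EBPα was called at 48 hpi for 2 of the 7 genes, *Mmp8* and *Mmp19* (8.66% of all genes), and C/EBPβ for the same 2 (5.37%). PU.1 was called there at 48 hpi for 3 of the 7, *Mmp8*, *Mmp12* and *Mmp13* (18.5%).

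To separate regions that held PU.1 in pre-B cells from others, C/EBPα regions called at 48 hpi were divided by whether PU.1 was called at 0 hpi no more than 1000 bp away. In the 7 loci 9 of 15 had such a region, against 44.7% in the genome. A C/EBPβ region at 48 hpi lay within 1000 bp of 15 of the 15, against 69.9% of C/EBPα regions in the genome. Of the 15 regions 9 lie in the neighbouring loci of *Mmp8*, *Mmp12* and *Mmp13*, and nearby regions can share a partner, so the shares are a description. Of the 38 sites called for C/EBPα at some time, 23 were not called at 48 hpi, against 79.0% in the genome. Of the 59 sites called for PU.1, 38 were never called for C/EBPα or C/EBPβ, against 77.4% in the genome.

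Changes between 0 and 48 hpi were counted over sites called for a factor at either time, as at least 2-fold and with values of fewer than 3 reads set to 3. Of these sites, 13 of 18 for C/EBPα, 18 of 20 for C/EBPβ and 19 of 44 for PU.1 were called at 48 hpi only, and 3, 0 and 3 at 0 hpi only. How the sites were called thus largely fixed the direction of the C/EBP counts and partly that of the PU.1 counts, here and in the genome, and nothing is read from them. For C/EBPα 14 of 18 sites were higher at 48 hpi (70.5% in the genome) and 3 lower (8.27%). For C/EBPβ 19 of 20 were higher (82.4%) and none lower (1.84%). For PU.1 25 of 44 were higher (33.4%) and 2 lower (20.9%). The 25 sites included 7 of 11 in the *Mmp8* locus, 5 of 8 in that of *Mmp9*, 5 of 6 in that of *Mmp12*, 3 of 6 in that of *Mmp13*, 3 of 5 in that of *Mmp19*, 1 of 6 in that of *Mmp14* and 1 of 2 in that of *Timp2*. The 2 lower sites were the *Mmp13* site 12.7 kb upstream and the *Mmp14* site 14 kb upstream. The latter lies 3555 bp from the start of *Slc7a7*. The *Mmp14* site counted 14.2 (6.8 to 26.1), 9.13, 34.5, 16.7 and 3.82 (1.04 to 9.79) at 0, 3, 12, 24 and 48 hpi. It was thus highest at 12 hpi, and its intervals at 0 and 48 hpi overlapped.

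**Figure D4:**
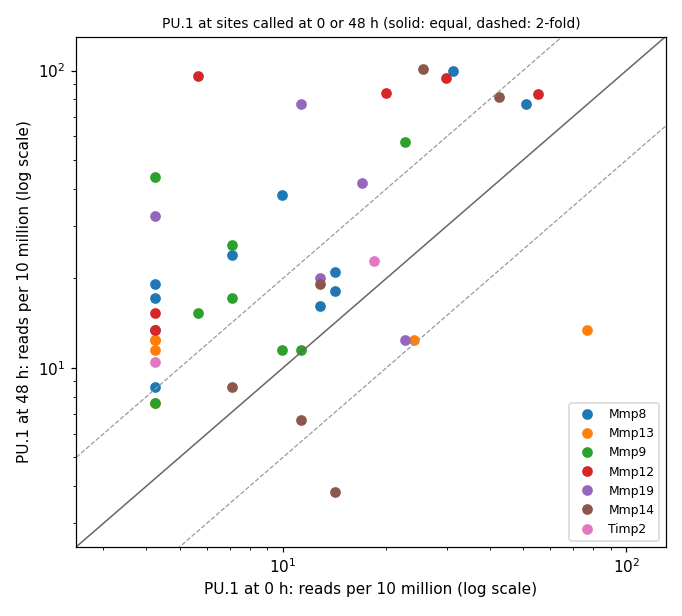
PU.1 reads per 10000000 at 0 hpi (horizontal, log scale) and 48 hpi (vertical, log scale) for the 44 sites called at either time, coloured by locus, with values under 3 reads drawn at the level of 3 reads. There are 25 sites on or above the upper dashed line of 2-fold and 2 on or below the lower one, among them the *Mmp13* site at 76.6 and 13.4.

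**Figure D5:**
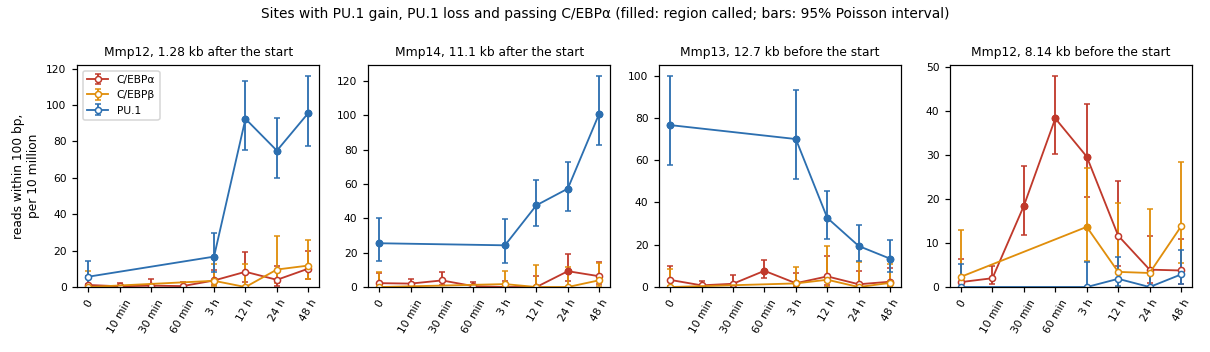
Reads within 100 bp per 10000000 against time for 4 sites outside the leading set, with 1 library per point, filled points where a region was called and bars for the 95% Poisson interval. PU.1 goes from 5.67 to 95.6 at *Mmp12* and from 25.5 to 101 at *Mmp14* with little C/EBP, and from 76.6 to 13.4 at *Mmp13*, and C/EBPα has its maximum of 38.4 at 60 min at the *Mmp12* site 8.14 kb upstream.

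The other 17 metalloproteinase genes and 4 inhibitors (*Timp1*, *Timp3*, *Timp4* and *Reck*) were counted in the same way. C/EBPα was called at 48 hpi in 4 of the 17 metalloproteinase loci (38.0% of all loci), C/EBPβ in 10 (42.4%) and PU.1 in 14 (71.1%). At 0 hpi these counts were 1 (15.3%), 1 (6.60%) and 14 (67.1%). The 4 with C/EBPα at 48 hpi were *Mmp27*, whose locus shares 15 of its 17 sites with that of *Mmp8*, *Mmp24* (highest site 30.2), *Mmp23* (26.4) and *Mmp11* (13.8). Of the inhibitors, only *Reck*, which encodes a membrane-anchored inhibitor, was called for C/EBPα at 48 hpi (10.1) and for C/EBPβ. *Mmp2*, the gelatinase A gene, had a single site, called for PU.1 at every time and never for C/EBPα or C/EBPβ.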

How the data were processed

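The data were 18 ChIP-seq libraries from C10 cells, with 1 library for each time at which PU.1, C/EBPα or C/EBPβ was profiled. The authors aligned the reads to mouse mm9 (Bowtie or another aligner, not given per library). They kept uniquely aligned reads, removed identical tags and deposited 1 line per remaining read with position and strand. Read counts are thus unscaled but were filtered before deposit, and they have no control library. At most 2.512% of the reads of a library, that of C/EBPα at 3 hpi, still shared a position. HOMER and Bowtie are named in the submitters' processing notes. The PU.1 library of 0 hpi is named as merged in the sources without its parts and was used as 1 library.

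Here 1 read per position and strand was kept and its 5′ end moved 75 bp inward. HOMER's rules were rebuilt: a 200-bp window, an FDR of 0.001 against a Poisson background over 2000000000 bp, 4-fold over the surrounding 10 kb, a local Poisson p of 0.0001 and maxima 400 bp apart. Regions of all libraries were merged where they overlapped, and the site centre was the median of the called centres. Values were scaled to 10000000 reads. Genes were those of GENCODE vM1 for mm9, and coordinates count from 1. PU.1 was taken as near a C/EBPα region where their edges lay within 1000 bp. In each locus the named sites were the leading C/EBPα site and the site with the most PU.1 reads at 0 hpi among those called then. Ties, as in the *Mmp13* locus, went to the higher value in any C/EBPα library. Other sites were named after their values were seen. The members and gene lists were chosen with earlier results of these data known. Alternatives in threshold, local fold, read filtering, depth, shift, locus width, merging and distance were computed. Python 3.11.15, numpy 2.4.6, scipy 1.17.1 and pandas 2.3.3 were used. Expression, histone marks and data on primary cells were not used here.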

Additional observations from a re-analysis of the deposited data

How the results depend on the processing

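With 1 library per factor and time point, differences between libraries were not set against replicate spread, and sites with fewer reads than the threshold are not detectable. No paired analysis was possible because no group had a replicate. Locus width changed the counts most: with 5 kb on either side the loci held 39 sites in place of 79, 8 in place of 15 for C/EBPα at 48 hpi, 11 in place of 20 for C/EBPβ at 48 hpi, 13 in place of 25 for PU.1 at 0 hpi and 20 in place of 41 for PU.1 at 48 hpi, with PU.1 at 0 hpi beside 4 C/EBPα sites in place of 9, and C/EBPα and C/EBPβ at 0 hpi in 2 and 0 loci in place of 4 and 2. With 50 kb there were 132 sites, 65 of them called for PU.1 at 48 hpi. These changes follow from the construction of the alternatives. With a threshold 1.5 times higher PU.1 was called at 15 sites at 0 hpi, C/EBPα at 0 hpi in 2 loci and C/EBPβ at 0 hpi in 0, and with libraries thinned to the smallest of a factor C/EBPβ at 0 hpi was called in 1 locus. Thinning also gave ratios of at least 19.3 for C/EBPα at the leading *Mmp12* site, at least 16.7 for C/EBPβ at that of *Mmp19* and 9.33 for C/EBPβ at that of *Mmp13*. The other 101 alternative values of counts and medians stayed within 1.5 times the reported count or within its interval, as did 102 single-site ratios within theirs. The C/EBPβ and PU.1 libraries held no reads at a shared position, so using all reads as deposited could not change their values. Those values are among the ones counted here and tell nothing about stability. No ratio whose interval excluded 1 changed direction.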

Other observations

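*Mmp8*, *Mmp12* and *Mmp13* lie with 7 other metalloproteinase genes in a cluster of 467 kb on chromosome 9, flanks included. Of the 66 sites called in it, 27 were outside the 3 loci described above. C/EBPα at 48 hpi was called at 2 of these 27 sites and at 9 of the 39 sites within the 3 loci, against 8.43% of the sites in the genome. C/EBPβ at 48 hpi was called at 5 of the 27 and 12 of the 39 (11.9%), and PU.1 at 48 hpi at 12 and 22 (39.3%). The strongest of the outer sites for C/EBPα at 48 hpi, 22113 bp from the nearest *Mmp27* start, counted 4.51 at 0 hpi, 17.7 at 10 min, 102 at 30 min, 105 at 60 min, 136 at 3 hpi, 101 at 12 hpi, 83.1 at 24 hpi and 44 at 48 hpi for C/EBPα. C/EBPβ counted 4.67, 92.4, 51.7, 83.3 and 69 there at 0, 3, 12, 24 and 48 hpi, and PU.1 4.25 at 0 hpi and 8.6 at 48 hpi. In an intron of *Mmp10*, 5329 bp from the nearest start, C/EBPα counted 6.77 at 0 hpi, 29.3 at 10 min, 106 at 30 min, 96.7 at 60 min, 56.6 at 3 hpi, 18.4 at 12 hpi, 9.23 at 24 hpi and 3.77 at 48 hpi. C/EBPα was called there from 10 min to 12 hpi only. C/EBPβ counted 7.01, 32.5, 24.1, 25.6 and 25.6 at 0, 3, 12, 24 and 48 hpi and was called from 3 hpi on.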
